A study of Mus musculus with 5 samples.

Results

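Translation initiation and elongation factors are the proteins that bring an mRNA, an initiator tRNA and the ribosome together and then drive the ribosome along the message. Their genes were followed in RNA from sorted mouse spleen T cells. The set was every protein-coding gene of the deposited table whose symbol begins with Eif1 to Eif6, Eef1 or Eef2, without the eIF2 kinases and the eEF2 kinase. It came to 58 genes of 35275 identifiers in the table. Of these, 55 had enough reads to be tested among 13298 tested genes. Eif4ebp3 had 1 read, in the CD8 Treg library, and Eef1a2 and Eif4e1b had 0 reads in every library.

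The 5 libraries came from spleens of wild-type C57BL/6 mice aged 3 months, with no treatment or altered allele named. There were 2 libraries labelled CD4 Treg (regulatory T cells of the CD4 lineage), 1 labelled CD8 Treg (regulatory T cells of the CD8 lineage) and 2 labelled CD49lo, a name that the labels do not spell out. All were sorted by flow cytometry after enrichment for CD8 cells, and the sort markers are not given. Whether the replicates are different animals is not in the labels. The p-values then measure only how far these samples spread, and that spread may be technical. Depth ran from 5441444 to 8354971 reads in genes.

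The labels were checked against marker genes. CD4 Treg markers (6 genes, Foxp3 and Cd4 among them) summed to 853 and 914 RPKM in CD4 Treg and to 47.4 to 67.3 RPKM in the other 3 libraries, and none of the 6 was at 0 there. CD8 lineage markers (4 genes) summed to 32.1 to 36.8 RPKM in CD4 Treg and to 832 to 1127 RPKM elsewhere. In CD8 Treg against CD49lo, 0 CD8 lineage markers were called. Of the CD4 Treg markers 0 were called higher there and 2 lower (Ctla4 and Cd4). Both lists thus leave the regulatory label of CD8 Treg unchecked. Markers of B cells, myeloid cells and NK cells moved with the groups. Their sums were 61.6 to 62.5, 2.08 to 14.7 and 3.09 to 3.93 RPKM in CD4 Treg, 459, 251 and 295 in CD8 Treg, and 916 to 1006, 453 to 508 and 488 to 1923 in CD49lo. All 10 B cell, 7 myeloid and 6 NK markers were called lower in CD4 Treg than in CD49lo, and all were called higher in CD8 Treg than in CD4 Treg. Dendritic cell markers summed to 0.778 to 0.865 RPKM (CD4 Treg), 8.004 (CD8 Treg) and 41.7 to 43.4 (CD49lo), and of 6 genes 4 were called lower in CD4 Treg and 2 in CD8 Treg than in CD49lo. Red cell markers summed to 4.16 to 15.1, 9.80 and 34.0 to 75.2 RPKM, with 3 and 1 of 4 tested genes called lower in the same comparisons. Klrd1 and Ncr1 had 0 reads in both CD4 Treg libraries. The part of other cell types in the results below was not tested. RPKM is the number of reads per kilobase of gene, scaled to library depth. In sorted pools, fewer cells that express a gene and less of its RNA per cell cannot be told apart.

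Initiation begins when eIF2 carries the initiator tRNA to the small ribosomal subunit, which eIF3 and eIF1 hold open for scanning, while the cap-binding eIF4F complex (eIF4E, eIF4G and the helicase eIF4A) prepares the mRNA. In elongation, eEF1A delivers aminoacyl-tRNAs and is recharged by its exchange factor eEF1B, and eEF2 moves the ribosome by a codon at a time. Mammalian mRNAs for elongation factors and ribosomal proteins are known for a run of pyrimidines at their 5′ end (the TOP motif), through which mTORC1 controls their translation in growing and activated lymphocytes.

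Most of these genes kept within a narrow range among the 5 libraries. For 51 of the 55 tested members (92.7%) the highest RPKM was under 2 times the lowest, against 50.5% of all 13298 tested genes. The median ratio was 1.41 for members and 1.98 for all tested genes, with genes at 0 in some library ranked highest. Those were 1 member, Eif2s3y, and 1546 of all tested genes. Ratios among the 54 members with reads in every library ran from 1.05 for Eif4a3 to 3.86 for Eif4e3. This difference in spread was not tested, and the members were not matched to other genes on level.

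**Figure D1:**
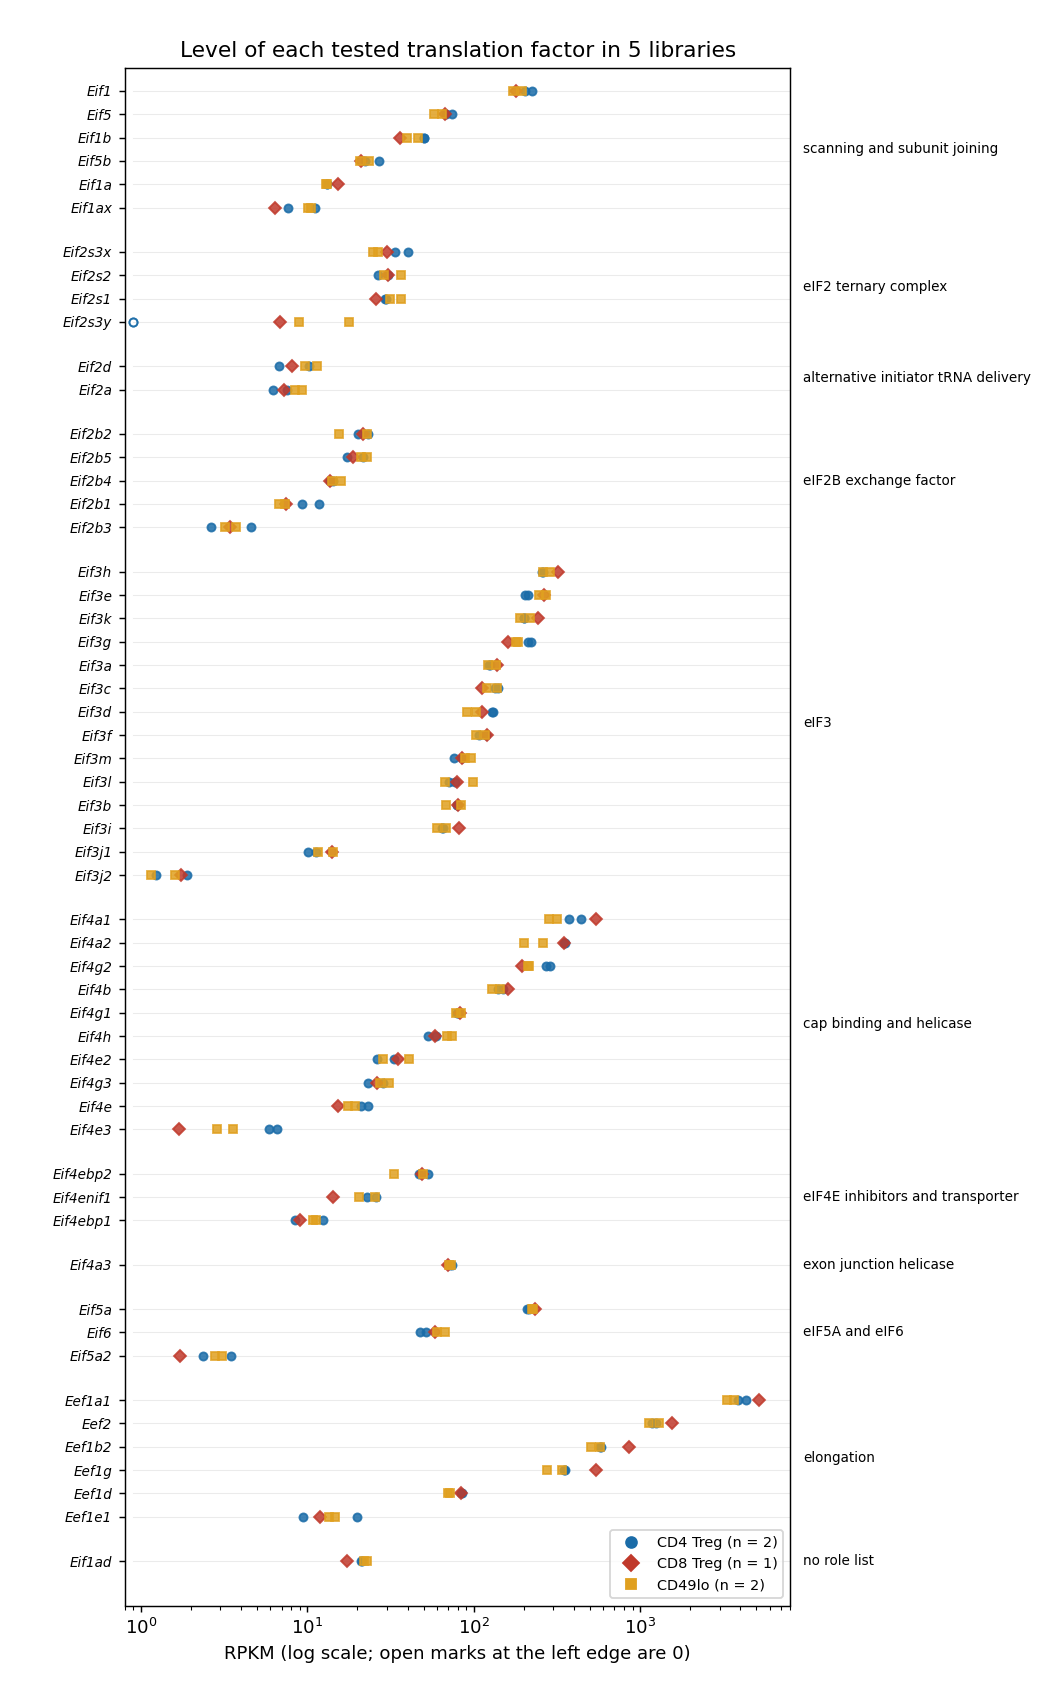
RPKM (log scale) of the 55 tested translation factors, 1 row a gene grouped by role, with 1 mark for each of the 5 libraries. The marks of most genes lie close together over a range of levels from 1.16 RPKM (Eif3j2 in a CD49lo library) to 5195 (Eef1a1 in CD8 Treg), while Eif2s3y is at 0 in both CD4 Treg libraries and Eif4e3 spreads widely.

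Differences between groups were tested with limma on log2(RPKM + 0.5) after scaling between libraries, and a gene is called at a Benjamini-Hochberg adjusted p under 0.05 over all tested genes. Fold changes are on that log2 scale, which understates changes of genes with low levels. In CD4 Treg against CD49lo, 6 of 55 members were called (10.9%), against a background of 22.3% of all tested genes. Of these, 5 were higher (9.09% of members, background 9.45%) and 1 was lower (1.82%, background 12.8%). The 1 lower member was the Y-linked Eif2s3y, with 0 reads in CD4 Treg, and the X-linked Eif2s3x was among the 5 higher. In CD8 Treg against CD49lo, 5 members were called (9.09%, background 5.3%), all 5 higher (background 1.71%) and 0 lower (background 3.59%). In CD8 Treg against CD4 Treg, 11 members were called (20%, background 16.9%), 8 higher (14.5%, background 8.51%) and 3 lower (5.45%, background 8.35%). Eif2s3y was 1 of the 8 higher. The 3 comparisons share libraries, so their counts are not independent. Sex-linked genes split the CD4 Treg libraries from the rest (below). Sex and group thus cannot be told apart in the comparisons with CD4 Treg, for any gene. The CD8 Treg group is a single library, which is assumed to vary like the others.

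The members' median log2 fold change was 0.04 in CD4 Treg against CD49lo, where that of all tested genes was -0.03. It was 0.11 against -0.04 in CD8 Treg against CD49lo, and 0.11 against 0.02 in CD8 Treg against CD4 Treg. Placing Eif2s3y, which had 0 reads in CD4 Treg, at its bound left the members' medians at 0.04 and 0.11. Without scaling between libraries the median of all genes in CD8 Treg against CD49lo moved from -0.04 to -0.16, and that of the members from 0.11 to -0.01. In that comparison 32.3% of all calls were higher, and 20.6% without scaling. Each translation factor named below as changed had the same direction with and without scaling. At an unadjusted p under 0.05 there were 14, 13 and 15 members in the 3 comparisons, in the order above. The share of all tested genes at that p was not taken, so these counts have no background and show no excess.

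The calls rest on few libraries. Leaving out CD4 Treg replicate 1 left 2, 1 and 1 members called in the 3 comparisons. Without CD4 Treg replicate 2 the counts were 1, 0 and 1, and without CD49lo replicate 1 or replicate 2 they were 1, 0 and 1 each time. Eif2s3y kept its call in each of these fits, but its 0 reads in both CD4 Treg libraries give no measured spread there. No called member changed direction. The filter on low values mattered as well: with no filter 1 member was called in each comparison, Eif2s3y in the first and Eif4ebp3, which had 1 read, in the others. With a filter of 1 RPKM in every library of a group the counts were 5, 0 and 2.

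**Figure D2:**
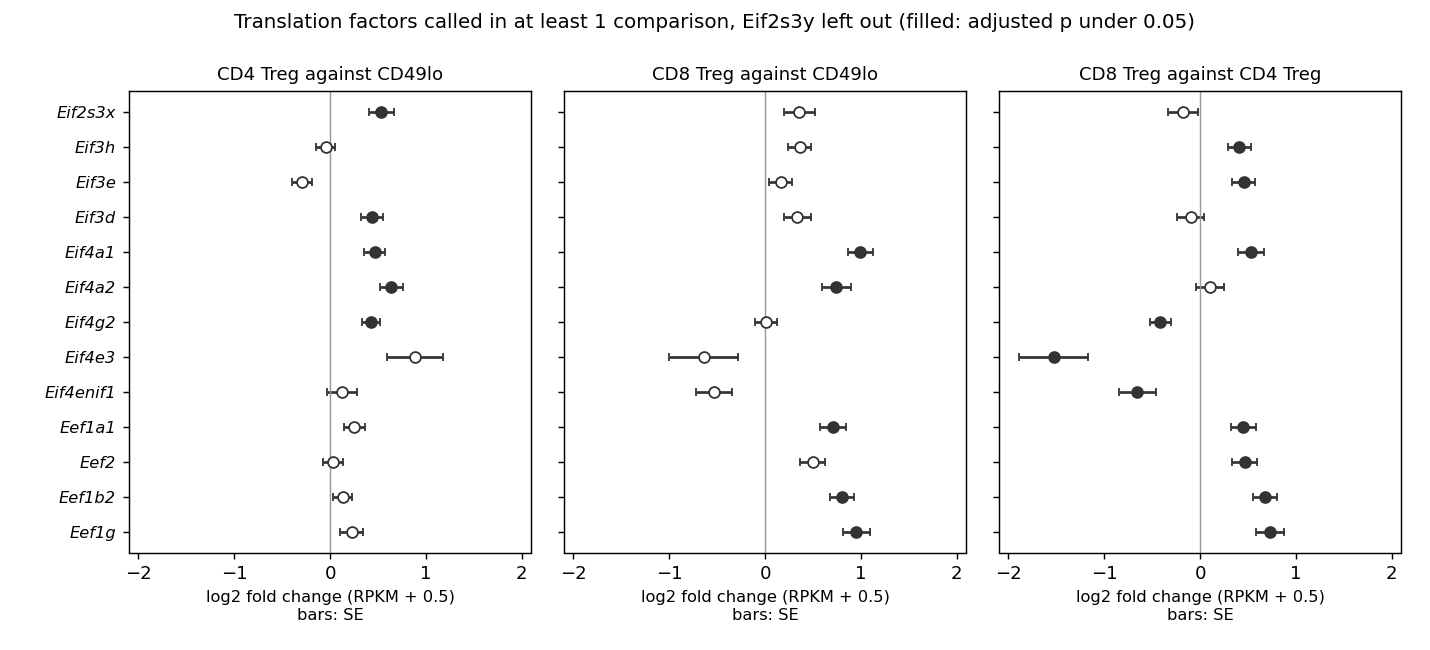
Log2 fold change (RPKM + 0.5) with its SE for 13 of the 14 members called in at least 1 comparison; Eif2s3y (-4.68 and 3.97 in the comparisons with CD4 Treg) lies outside the axis. Filled marks are called. The elongation factors shown (Eef1a1, Eef1b2, Eef1g and Eef2) lie to the right of 0 in both panels with CD8 Treg, Eef2 without a call against CD49lo. Eif4g2, Eif4e3 and Eif4enif1 lie to the left in CD8 Treg against CD4 Treg.

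The elongation factors include the 3 members with the highest RPKM, and as a share of reads they were highest in the CD8 Treg library. Of the 7 genes, 6 were tested. Compared with CD49lo, 3 of the 6 rose in CD8 Treg (Eef1a1, Eef1b2 and Eef1g), and compared with CD4 Treg 4 rose (those and Eef2). The shares of all tested genes called higher in these comparisons were 1.71% and 8.51%. None of the 6 was called between CD4 Treg and CD49lo by limma, where the lowest adjusted p was 0.0967. Their share of all reads in genes was 1.26% and 1.36% (CD4 Treg), 1.70% (CD8 Treg), and 1.25% and 1.12% (CD49lo). The CD8 Treg library lay above the other 4, and the ranges of CD4 Treg and CD49lo were next to each other without overlap.

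Eef1a1 (ENSMUSG00000037742, chromosome 9, 78478449 to 78489151) encodes the main eEF1A, the carrier of aminoacyl-tRNA. It had 3888 and 4303 RPKM (CD4 Treg), 5195 (CD8 Treg), and 3667 and 3331 (CD49lo), the highest mean level of all members. CD8 Treg was highest and the CD49lo pair lowest, with no overlap between groups. The log2 difference was 0.71 ± 0.13 (SE; adjusted p = 0.0168) in CD8 Treg against CD49lo and 0.45 ± 0.13 (SE; adjusted p = 0.0469) against CD4 Treg. The latter call is close to the threshold: without scaling its adjusted p was 0.0883. It held in 4 of 9 other limma settings that kept all libraries, where its adjusted p reached 0.226. Eef1a2, the form of muscle and neurons, had 0 reads.

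Eef1b2 (ENSMUSG00000025967, chromosome 1, 63176825 to 63180486) encodes the subunit of eEF1B that exchanges the nucleotide on eEF1A. Its level was 577 and 580.4 RPKM (CD4 Treg), 858 (CD8 Treg), and 573 and 506 (CD49lo). The other 4 libraries lay within 506 to 580 RPKM, and CD8 Treg stood above all of them. The log2 difference in CD8 Treg was 0.81 ± 0.12 (SE; adjusted p = 0.00693) against CD49lo and 0.68 ± 0.12 (SE; adjusted p = 0.00562) against CD4 Treg. Eef1g (ENSMUSG00000071644, chromosome 19, 8967041 to 8978479), the scaffold subunit of eEF1B, had 351 and 352 RPKM (CD4 Treg), 539.8 (CD8 Treg), and 339 and 276 (CD49lo). Its log2 difference in CD8 Treg was 0.95 ± 0.14 (SE; adjusted p = 0.00642) against CD49lo and 0.73 ± 0.14 (SE; adjusted p = 0.00826) against CD4 Treg. Eef1d, the third eEF1B subunit and a second exchange factor as well, had 85.0 and 83.6 RPKM (CD4 Treg), 83.6 (CD8 Treg), and 72.3 and 69.7 (CD49lo). It was not called in any comparison, and the CD8 Treg value lay within the CD4 Treg range. The RPKM ratio of Eef1b2 to Eef1d was 6.78 and 6.94 (CD4 Treg), 10.3 (CD8 Treg), and 7.92 and 7.25 (CD49lo), highest in CD8 Treg; this ratio was not tested.

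Eef2 (ENSMUSG00000034994, chromosome 10, 81176631 to 81182507), the translocation factor, had 1176 and 1247 RPKM (CD4 Treg), 1552 (CD8 Treg), and 1293 and 1127 (CD49lo). CD4 Treg lay inside the CD49lo range. CD8 Treg exceeded CD4 Treg by 0.47 ± 0.13 (SE; adjusted p = 0.0413). This call held in 4 of 9 other limma settings that kept all libraries, where its adjusted p reached 0.184. Against CD49lo the difference of 0.50 ± 0.13 (SE; adjusted p = 0.0676) was not called. Eef1e1, which is named as an elongation factor and is known as a part of the multi-synthetase complex, rested on 60 to 116 reads a library and had 9.37 and 19.9 RPKM (CD4 Treg), 12 (CD8 Treg), and 13.5 and 14.8 (CD49lo). The CD4 Treg pair was further apart than any other 2 libraries.

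**Figure D3:**
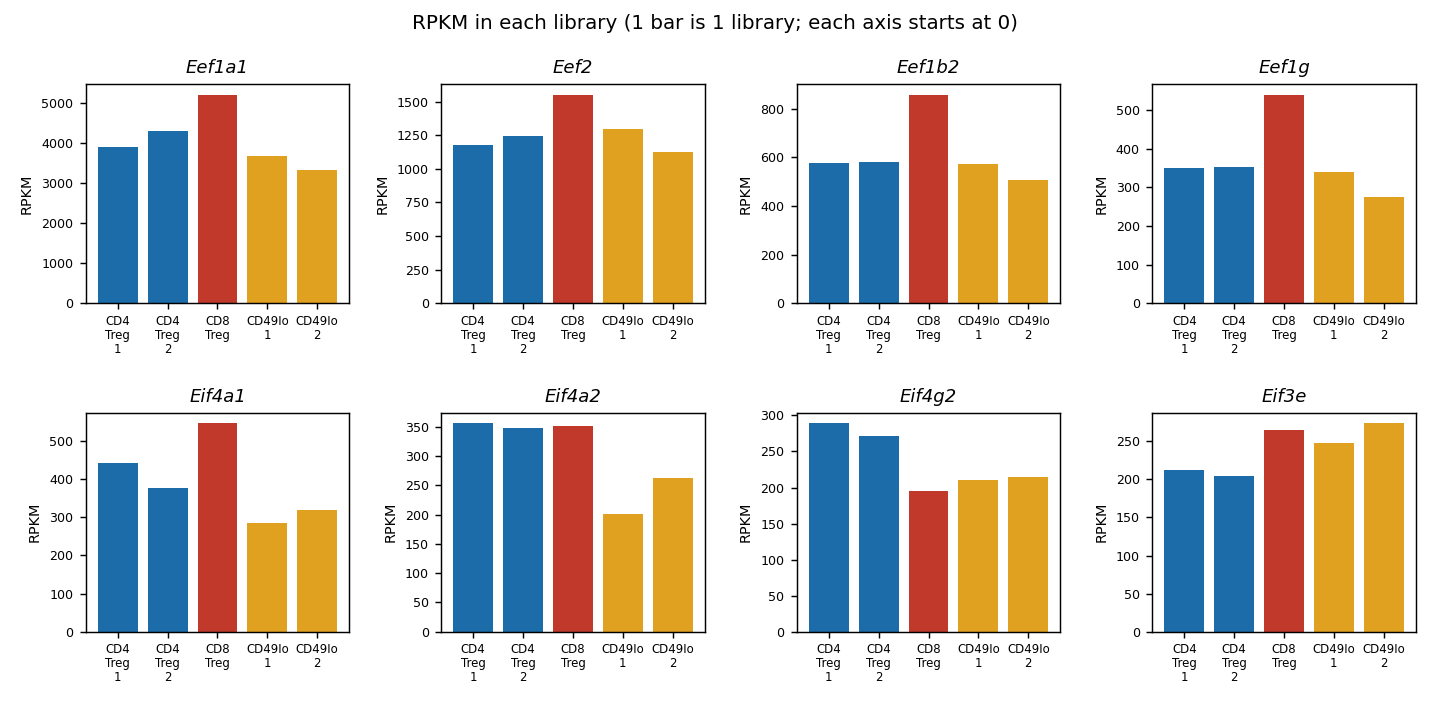
RPKM of 8 members, 1 bar a library, each axis from 0. Eef1a1, Eef2, Eef1b2, Eef1g and Eif4a1 are highest in CD8 Treg (5195, 1552, 858, 540 and 546 RPKM), Eif4a2 is lower in both CD49lo libraries, Eif4g2 is higher in both CD4 Treg libraries, and Eif3e is lower in them.

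Ribosomal protein genes moved with the elongation factors in the comparisons with CD8 Treg. Of 84 tested (87 in the table), 66 rose and 0 fell in CD8 Treg against CD49lo, with a median log2 fold change of 0.74, and 67 rose and 1 fell (Rpl29) against CD4 Treg, with a median of 0.56. Between CD4 Treg and CD49lo 16 rose and 2 fell, with a median of 0.14. Of all tested genes 1.71%, 8.51% and 9.45% were called higher in these comparisons, in this order, and 3.59%, 8.35% and 12.8% lower. Without scaling the medians in the comparisons with CD8 Treg were 0.61 and 0.45, with 60 and 53 genes higher. The medians held when a CD49lo library was left out (0.74 and 0.56 without replicate 1, 0.75 and 0.55 without replicate 2), but 0 genes were then called higher. Without CD4 Treg replicate 1 the numbers higher were 14 and 6, and without CD4 Treg replicate 2 they were 2 and 3. Rps16 rose by 1.08 ± 0.11 (SE; adjusted p = 0.00114) and Rps19 by 0.98 ± 0.11 (SE; adjusted p = 0.00155) in CD8 Treg against CD49lo, and Rps12 by 1.27 ± 0.11 (SE; adjusted p = 0.000103) against CD4 Treg. These genes held 10.9% and 10.6% (CD4 Treg), 14.7% (CD8 Treg), and 9.74% and 9.88% (CD49lo) of reads in genes. The CD8 Treg library also stood apart in the noncoding gene Gm26917 (named after its values were seen), which took 3.33% and 3.54% (CD4 Treg), 6.86% (CD8 Treg), and 4.16% and 3.57% (CD49lo) of reads. The part of this library's composition in the elongation factor result was not tested.

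**Figure D4:**
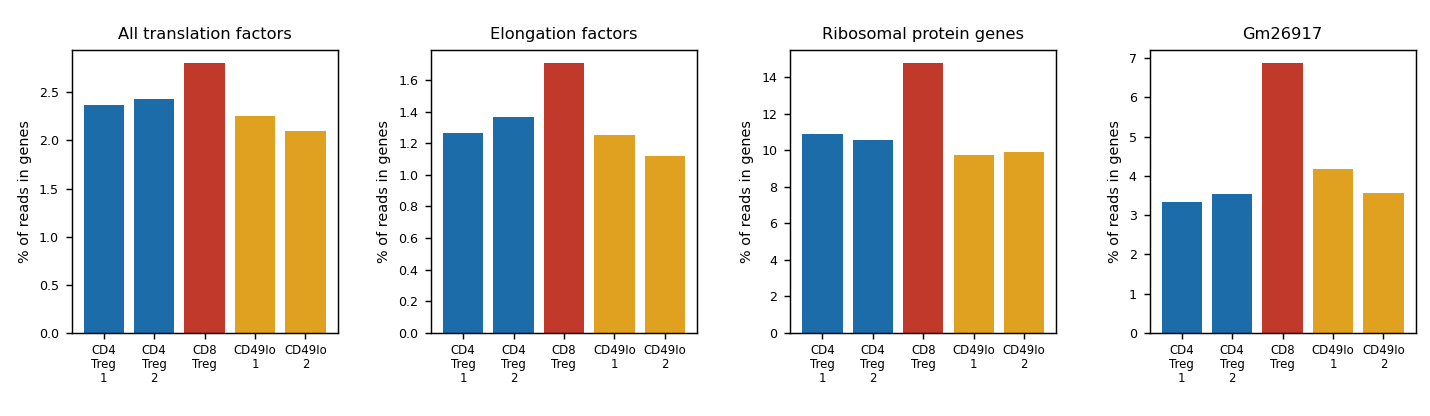
Share of reads in genes (%) taken by the 58 translation factors, the elongation factors among them, ribosomal protein genes and Gm26917, 1 bar a library. CD8 Treg is the highest library in all 4 panels (2.80%, 1.70%, 14.7% and 6.86%).

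Start-site sequences were read for members that were called, because some elongation factor mRNAs are known TOP mRNAs. The windows run from 40 bases before to 20 bases after the annotated start and come from RefSeq on GRCm38.p6, 5′ to 3′ on the gene's strand. Capitals mark a tract of C followed by at least 6 further C or T, as far as it lies in the window.
Eef1a1, chr9:78481705-78481764, minus strand: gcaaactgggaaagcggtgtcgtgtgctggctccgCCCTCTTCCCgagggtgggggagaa
Eef2, chr10:81176591-81176650, plus strand: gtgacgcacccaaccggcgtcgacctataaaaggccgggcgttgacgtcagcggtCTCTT
Eef1b2, chr1:63176791-63176850, plus strand: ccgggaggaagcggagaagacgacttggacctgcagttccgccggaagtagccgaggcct
Eif4a1, chr11:69672404-69672463, minus strand: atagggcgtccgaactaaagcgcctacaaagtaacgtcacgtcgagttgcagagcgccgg
Eif4a2, chr16:23107428-23107487, plus strand: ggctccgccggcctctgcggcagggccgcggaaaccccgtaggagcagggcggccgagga
Eif3d, chr15:77970805-77970864, minus strand: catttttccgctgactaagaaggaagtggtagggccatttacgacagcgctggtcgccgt
Eif4enif1, chr11:3202313-3202372, plus strand: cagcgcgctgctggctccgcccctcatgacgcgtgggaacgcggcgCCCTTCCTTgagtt
The tract was searched on the gene's strand from 10 bases before to 25 after the annotated start. Among the called members it was present in Eef1a1, Eef2, Eif4enif1 (the first of its 4 annotated starts is shown), Eif2s3x and Eif2s3y, and was not in the windows of Eef1b2, Eif4a1, Eif4a2 and Eif3d. Of 43 tested members with a promoter entry, 13 (30.2%) held it, and 5 of the 9 called ones (55.6%). These 9 were called in different comparisons and directions, and the sex-linked Eif2s3x and Eif2s3y are among the 5. Among 8985 protein-coding tested genes with an entry, 1675 (18.6%) held it. Where a gene has several annotated starts, any of them counted. Annotated starts can differ from the starts used in these cells, and the shares are a description. The search includes bases before the start, so a marked tract is not shown to lie in the mRNA or to be a TOP motif. For Eef1a1, on the minus strand, the start used for the window (78481724) is not the upper bound of the gene (78489151).

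Of the cap-binding and helicase factors (11 genes, 10 tested), 3 rose in CD4 Treg against CD49lo (Eif4a1, Eif4a2 and Eif4g2), 2 rose in CD8 Treg against CD49lo (Eif4a1 and Eif4a2), and in CD8 Treg against CD4 Treg 1 rose (Eif4a1) and 2 fell (Eif4g2 and Eif4e3). The shares of all tested genes called higher were 9.45%, 1.71% and 8.51% in these comparisons, and 8.35% were called lower in the last. Both helicase genes were higher in the CD4 Treg pair and in the single CD8 Treg library than in CD49lo. Eif4a1 (ENSMUSG00000059796, chromosome 11, 69666936 to 69672423) encodes the major eIF4A helicase and had 442 and 376 RPKM (CD4 Treg), 546 (CD8 Treg), and 283 and 318 (CD49lo). The 3 groups did not overlap, and CD8 Treg was highest. The log2 difference was 0.47 ± 0.11 (SE; adjusted p = 0.0139) in CD4 Treg against CD49lo, 0.995 ± 0.13 (SE; adjusted p = 0.00386) in CD8 Treg against CD49lo and 0.53 ± 0.13 (SE; adjusted p = 0.0266) in CD8 Treg against CD4 Treg. Without scaling the last had an adjusted p of 0.0597. That call held in 5 of 9 other limma settings that kept all libraries, where its adjusted p reached 0.182.

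Eif4a2 (ENSMUSG00000022884, chromosome 16, 23107444 to 23114136) encodes a close relative of eIF4A1 that is also linked to repression through the CCR4-NOT complex. It had 356 and 348 RPKM (CD4 Treg), 351 (CD8 Treg), and 201 and 262 (CD49lo). Both CD4 Treg libraries and the single CD8 Treg library lay in a narrow range above both CD49lo libraries. It was higher by 0.64 ± 0.12 (SE; adjusted p = 0.00475) in CD4 Treg and by 0.74 ± 0.15 (SE; adjusted p = 0.0221) in CD8 Treg, each against CD49lo. The 2 coding sequences are 78.1% identical over 1221 aligned bases, with a longest identical run of 20 bases. The RPKM ratio of Eif4a1 to Eif4a2 was 1.24 and 1.08 (CD4 Treg), 1.55 (CD8 Treg), and 1.41 and 1.21 (CD49lo), and CD4 Treg and CD49lo overlapped in it.

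Eif4g2 (ENSMUSG00000005610, chromosome 7, 111070568 to 111083030) encodes DAP5, an eIF4G relative that lacks the eIF4E-binding part. It had 289 and 272 RPKM (CD4 Treg), 195 (CD8 Treg), and 211 and 215 (CD49lo). The CD4 Treg pair lay above the other 3 libraries. The log2 difference was 0.43 ± 0.09 (SE; adjusted p = 0.00911) in CD4 Treg against CD49lo, and Eif4g2 fell by 0.41 ± 0.11 (SE; adjusted p = 0.0349) in CD8 Treg against CD4 Treg. The full eIF4G scaffolds were not called. Eif4g1 had 80.7 and 79.5 RPKM (CD4 Treg), 82.4 (CD8 Treg), and 84.0 and 78.6 (CD49lo), and Eif4g3 had 28.5 and 23.2 RPKM (CD4 Treg), 26.3 (CD8 Treg), and 30.8 and 27.3 (CD49lo). Eif4g2 made up 72.6% and 72.6% (CD4 Treg), 64.3% (CD8 Treg), and 64.7% and 67.0% (CD49lo) of the summed RPKM of the 3 family members.

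Eif4e3 (ENSMUSG00000093661, chromosome 6, 99625135 to 99666771) encodes a minor cap-binding relative of eIF4E. It rested on only 26 to 92 reads a library and had 5.90 and 6.58 RPKM (CD4 Treg), 1.70 (CD8 Treg), and 2.86 and 3.57 (CD49lo). The 3 groups did not overlap. Eif4e3 fell by 1.53 ± 0.36 (SE; adjusted p = 0.0183) in CD8 Treg against CD4 Treg. Its difference in CD4 Treg against CD49lo, 0.89 ± 0.29 (SE; adjusted p = 0.0591), was not called. The annotation holds another gene, Gm20696, on the same strand over 41637 bases of Eif4e3 so the split of reads between them is uncertain. Gm20696 had 27 and 26 reads (CD4 Treg), 72 (CD8 Treg), and 48 and 24 (CD49lo), against 92 and 90, 26, and 60 and 59 for Eif4e3, and was thus highest where Eif4e3 was lowest. Summed, the 2 genes took 0.00192% and 0.00213% (CD4 Treg), 0.00161% (CD8 Treg), and 0.00129% and 0.00126% (CD49lo) of reads in genes. CD8 Treg was below CD4 Treg in this sum by less than in Eif4e3 alone, and above CD49lo. The part of this split in the Eif4e3 call was not tested. The main cap-binding gene Eif4e had 21.0 and 23.1 RPKM (CD4 Treg), 15.4 (CD8 Treg), and 19.3 and 17.5 (CD49lo) and was not called.

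The cofactors of the helicase, Eif4b and Eif4h, had 128 to 160 RPKM and 53.4 to 74.0 RPKM over the 5 libraries and were not called. Eif4e2, which encodes the repressive cap-binding protein 4EHP, had 33.0 and 26.2 RPKM (CD4 Treg), 34.9 (CD8 Treg), and 41.0 and 28.7 (CD49lo) and was not called. Eif4e1b, known from oocytes, had 0 reads.

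Among the inhibitors and the transporter of eIF4E (4 genes, 3 tested), Eif4enif1 (ENSMUSG00000020454, chromosome 11, 3202392 to 3244588) was the 1 called. It encodes 4E-T, which shuttles eIF4E and is found in P-bodies, and had 26.0 and 22.8 RPKM (CD4 Treg), 14.2 (CD8 Treg), and 25.4 and 20.4 (CD49lo). CD8 Treg was the lowest library, and CD4 Treg and CD49lo overlapped. Eif4enif1 fell by 0.65 ± 0.19 (SE; adjusted p = 0.0466) in CD8 Treg against CD4 Treg. With limma-voom on recovered reads its adjusted p was 0.0548. The call held in 4 of 9 other limma settings that kept all libraries, where its adjusted p reached 0.214. Drg1 lies on the other strand over the 42197 bases of this gene with 417 to 672 reads a library, and the counting is not stated to use strand, so the 2 genes' reads may not be told apart. The 4E-BPs, which block eIF4E until mTORC1 phosphorylates them, were not called. Eif4ebp2 had 53.2 and 46.6 RPKM (CD4 Treg), 48.6 (CD8 Treg), and 49.4 and 33.2 (CD49lo), and Eif4ebp1 had 12.5 and 8.43 RPKM (CD4 Treg), 9.06 (CD8 Treg), and 11.2 and 10.9 (CD49lo) from 45 to 92 reads. Eif4ebp2 exceeded Eif4ebp1 by 3.05 to 5.53 times in RPKM in each library.

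In eIF2, the genes of the gamma subunit differed between groups. The gamma subunit binds GTP and the initiator tRNA, and in the mouse it is encoded by Eif2s3x on the X chromosome, known to escape X inactivation, and by its Y-linked relative Eif2s3y. The start windows of both genes held the pyrimidine tract, shown in capitals as above.
Eif2s3x, chrX:94212632-94212691, minus strand: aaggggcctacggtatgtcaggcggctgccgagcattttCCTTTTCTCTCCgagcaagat
Eif2s3y, chrY:1010555-1010614, plus strand: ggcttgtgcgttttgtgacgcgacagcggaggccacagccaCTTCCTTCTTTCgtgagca
Their first 90 coding bases differ at 16 positions, shown in capitals, which bears on whether reads can be assigned to each gene.
Eif2s3x, coding bases 1 to 90: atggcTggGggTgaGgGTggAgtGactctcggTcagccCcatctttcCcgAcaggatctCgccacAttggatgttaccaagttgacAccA
Eif2s3y, coding bases 1 to 90: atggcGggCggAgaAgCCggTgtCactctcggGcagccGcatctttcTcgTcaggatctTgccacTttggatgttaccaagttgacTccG
Over the whole coding sequence (1419 bases each, GENCODE M21) the 2 genes are 86.3% identical, with a longest identical run of 34 bases.

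Eif2s3y (ENSMUSG00000069049, chromosome Y, 1010543 to 1028847) had 0 and 0 RPKM (CD4 Treg), 6.87 (CD8 Treg), and 8.92 and 17.8 (CD49lo), from 0, 0, 130, 232 and 364 reads. Against a floor of 3 reads over the CD4 Treg group it was at least 83.1-fold higher in CD8 Treg and at least 155-fold higher in CD49lo. It was called lower in CD4 Treg than in CD49lo (limma, adjusted p = 8.36e-05) and higher in CD8 Treg than in CD4 Treg (adjusted p = 0.00114). The gene passed the filter only through the CD8 Treg and CD49lo libraries. With 0 reads in both CD4 Treg libraries, these p-values measure no spread within that group. The same split held for other sex-linked genes. Xist, expressed from the inactive X chromosome, had 35.5 and 27.2 RPKM (CD4 Treg), 0.0834 (CD8 Treg), and 0.0269 and 0 (CD49lo). The Y-linked Ddx3y had 0.0701 and 0 RPKM (CD4 Treg), 18.3 (CD8 Treg), and 18.3 and 27.4 (CD49lo), and Kdm5d and Uty likewise had 0 to 0.0202 RPKM in CD4 Treg and 6.05 to 9.30 RPKM elsewhere. No label states whether the mice were male or female. By these genes the CD4 Treg libraries had the pattern of female cells and the other libraries that of male cells. In both comparisons with CD4 Treg, sex and the CD4 Treg group cannot be told apart, for autosomal genes as well.

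Eif2s3x (ENSMUSG00000035150, chromosome X, 94188707 to 94212862) had 33.7 and 40.4 RPKM (CD4 Treg), 30.2 (CD8 Treg), and 24.9 and 26.7 (CD49lo). The groups did not overlap. It rose by 0.53 ± 0.13 (SE; adjusted p = 0.017) in CD4 Treg against CD49lo, and was not called in the other comparisons. Kdm5c and Kdm6a, which also escape X inactivation in the mouse, rose in CD4 Treg against CD49lo by 0.72 ± 0.12 (SE; adjusted p = 0.00275) and 0.86 ± 0.15 (SE; adjusted p = 0.00291). In CD8 Treg against CD4 Treg these genes fell, by 0.88 ± 0.15 (SE; adjusted p = 0.004) and 0.72 ± 0.18 (SE; adjusted p = 0.0263). Eif2s3x differed there by -0.18 ± 0.16 (SE; adjusted p = 0.515). Ddx3x was not called, with 75.6 and 77.8 RPKM (CD4 Treg), 81.4 (CD8 Treg), and 96.3 and 85.3 (CD49lo). The summed RPKM of Eif2s3x and Eif2s3y was 33.7 and 40.4 (CD4 Treg), 37.1 (CD8 Treg), and 33.8 and 44.5 (CD49lo), and in this sum the groups overlapped. Eif2s3y gave 0% and 0% (CD4 Treg), 18.5% (CD8 Treg), and 26.4% and 40% (CD49lo) of it.

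**Figure D5:**
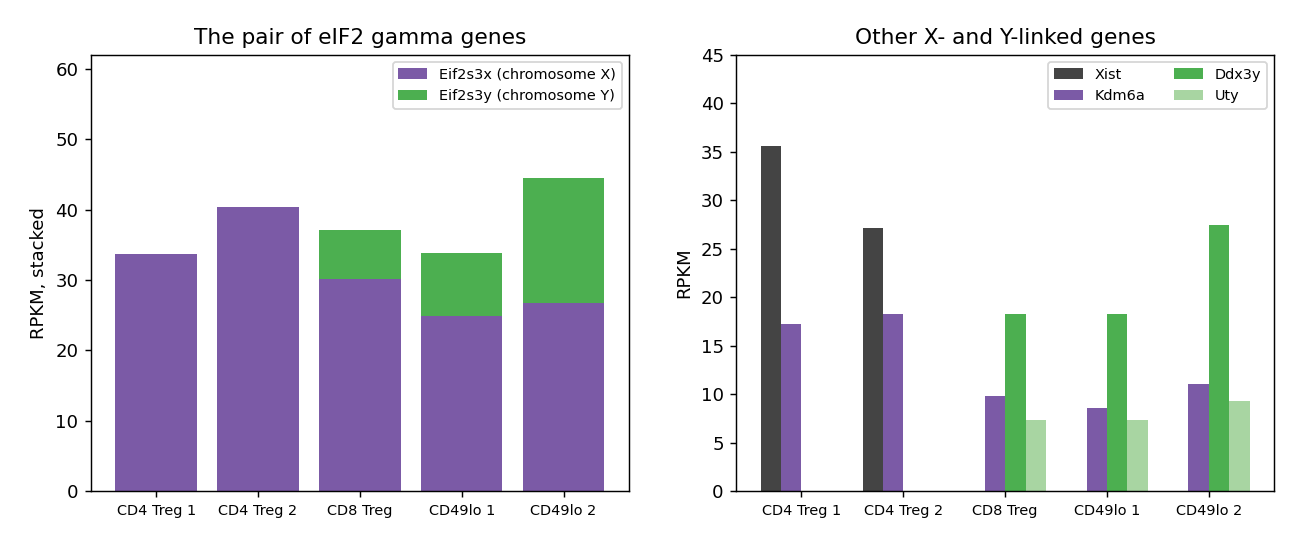
Left, RPKM of Eif2s3x and Eif2s3y stacked for each library; right, RPKM of Xist, Kdm6a, Ddx3y and Uty. Only the CD4 Treg libraries lack Eif2s3y, and of their stacked totals 40.4 RPKM lies among those of the other 3 (33.8 to 44.5) and 33.7 just below them; Xist is high in CD4 Treg, and Ddx3y and Uty are high in the other 3.

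The other eIF2 subunits were not called. Eif2s1, the alpha subunit that stress kinases phosphorylate, had 29.2 and 29.6 RPKM (CD4 Treg), 25.9 (CD8 Treg), and 36.4 and 31.2 (CD49lo). Eif2s2, the beta subunit, had 30.7 and 26.4 RPKM (CD4 Treg), 30.4 (CD8 Treg), and 36.6 and 28.9 (CD49lo). The gamma sum was 0.926 to 1.48 times the mean RPKM of these 2 genes across libraries. The remaining X-linked member, Eif1ax, encodes eIF1A, which works in scanning with eIF1. It had 7.64 and 11.2 RPKM (CD4 Treg), 6.40 (CD8 Treg), and 10.5 and 10.1 (CD49lo), was not called, and the CD4 Treg pair spanned the CD49lo values.

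Of the 14 eIF3 genes, all tested, 1 rose in CD4 Treg against CD49lo (Eif3d), 0 were called in CD8 Treg against CD49lo, and 2 rose in CD8 Treg against CD4 Treg (Eif3e and Eif3h). Of all tested genes 22.3%, 5.3% and 16.9% were called in either direction, and 9.45%, 1.71% and 8.51% were called higher. The eIF3 shares were not above the background of either direction. Against the share called higher, that in CD8 Treg against CD4 Treg was above it, on 2 genes. In CD8 Treg against CD49lo the lowest adjusted p of the 14 was 0.103. Their median log2 fold changes were 0.02, 0.25 and 0.21 in the 3 comparisons. The sum over the complex was 1695 and 1701 (CD4 Treg), 1817 (CD8 Treg), and 1754 and 1677 (CD49lo) RPKM, and CD4 Treg lay inside the CD49lo range. Eif3d (ENSMUSG00000016554, chromosome 15, 77958998 to 77970824), a subunit that can itself bind the cap of some mRNAs, had 129 and 131 RPKM (CD4 Treg), 112 (CD8 Treg), and 104 and 91.7 (CD49lo). The groups did not overlap, and the log2 difference in CD4 Treg against CD49lo was 0.44 ± 0.11 (SE; adjusted p = 0.0221).

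Eif3e (ENSMUSG00000022336, chromosome 15, 43250040 to 43282736) had 212 and 204 RPKM (CD4 Treg), 265 (CD8 Treg), and 247 and 273 (CD49lo), and Eif3h (ENSMUSG00000022312, chromosome 15, 51786558 to 51865481) had 259 and 262 RPKM (CD4 Treg), 321 (CD8 Treg), and 263 and 286 (CD49lo). Both encode subunits of the core that surrounds the mRNA exit side of the small ribosomal subunit. Relative to CD4 Treg, CD8 Treg was higher by 0.45 ± 0.12 (SE; adjusted p = 0.0334) in Eif3e and by 0.41 ± 0.12 (SE; adjusted p = 0.0472) in Eif3h. Neither call held without scaling, with adjusted p of 0.0871 and 0.126. For Eif3e the CD8 Treg value lay inside the CD49lo range and the CD4 Treg pair was the lowest. Without scaling, the lower Eif3e level in CD4 Treg against CD49lo became a call at -0.32 (adjusted p = 0.0485), where with scaling it was -0.29 ± 0.10 (SE; adjusted p = 0.0666) and not a call.

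Levels differed among the eIF3 genes. Among the 12 subunits other than eIF3j, RPKM in CD8 Treg ran from 79.6 (Eif3l) to 321 (Eif3h). Eif3j1 had 11.2 and 10.1 RPKM (CD4 Treg), 14.1 (CD8 Treg), and 14.2 and 11.6 (CD49lo) and Eif3j2 1.90 and 1.24 RPKM (CD4 Treg), 1.73 (CD8 Treg), and 1.16 and 1.60 (CD49lo). Their coding sequences are identical at all 786 aligned bases, with a longest unbroken run of 784. Reads within it cannot be assigned to either gene, so both values are uncertain.

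No member was called by limma in any comparison in the remaining roles. The scanning and subunit-joining factors (6 genes) had their lowest adjusted p at 0.151. In that group Eif1, which guards start codon choice, had 202 and 223 RPKM (CD4 Treg), 180.5 (CD8 Treg), and 173 and 196 (CD49lo), and its relative Eif1b had 50.3 and 50.3 RPKM (CD4 Treg), 35.9 (CD8 Treg), and 39.5 and 46.3 (CD49lo). Eif5, the GTPase-activating factor of eIF2, ran from 58.0 to 73.5 RPKM, and Eif5b, which joins the ribosomal subunits, from 20.9 to 26.8 RPKM. Eif1a, an autosomal gene for eIF1A, ran from 12.9 to 15.4 RPKM.

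The 5 subunits of eIF2B, which reloads eIF2 with GTP, had a lowest adjusted p of 0.134. Eif2b1 had 9.29 and 11.7 RPKM (CD4 Treg), 7.44 (CD8 Treg), and 6.78 and 7.34 (CD49lo), with CD4 Treg above the other libraries. Eif2b3, the lowest of the 5, ran from 2.64 to 4.59 RPKM on 54 to 107 reads. Eif5a, the factor that carries hypusine and helps the ribosome past difficult peptide bonds, had 208 and 214 RPKM (CD4 Treg), 232 (CD8 Treg), and 228 and 225 (CD49lo). Eif6, which keeps the ribosomal subunits apart, had 51.7 and 47.8 RPKM (CD4 Treg), 58.3 (CD8 Treg), and 60.1 and 67.3 (CD49lo), lowest in the CD4 Treg pair. Eif5a2 ran from 1.72 to 3.50 RPKM. Eif2a and Eif2d, which can deliver initiator tRNA without eIF2, ran from 6.20 to 11.5 RPKM, and Eif1ad from 17.4 to 22.9 RPKM. Eif4a3, the helicase of the exon junction complex, had the narrowest range, 70.3 to 74.0 RPKM. These uncalled members are named after their values were seen.

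Some of the called members hold small nucleolar RNA (snoRNA) genes within their bounds. In GENCODE M21, 8 of 55 tested members (14.5%) held a snoRNA gene on the same strand, against 203 of 11887 tested protein-coding genes (1.71%). They were Eef1b2, Eef2, Eif3a, Eif4a1, Eif4a2, Eif4g1, Eif4g2 and Eif5. Of the 14 called members 5 were among them (35.7%), and of the 41 not called 3 (7.32%). Many host genes of snoRNAs are known to encode parts of the translation machinery. Whether reads from the snoRNAs enter the members' values was not tested. Pseudogenes named after members held 24 reads in all over 7 rows.

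The enzymes and pathways that act on these factors were described from lists. Of 20 control genes (eIF2 and eEF2 kinases, phosphatase subunits and mTORC1 genes), 4 rose and 1 fell in CD4 Treg against CD49lo, 1 rose in CD8 Treg against CD49lo, and 2 rose and 2 fell in CD8 Treg against CD4 Treg. Of all tested genes 22.3%, 5.3% and 16.9% were called in these comparisons, the background for this and the later lists. The shares called among the control genes were near it. The limma calls of control genes also rest on few libraries. In the first comparison 1 gene rose and 0 fell when either CD4 Treg library or CD49lo replicate 2 was left out, and 0 were called when CD49lo replicate 1 was. In the second 0 were called in each of these 4 fits. In the third 1 rose and 1 fell without CD4 Treg replicate 1, 0 rose and 1 fell without CD4 Treg replicate 2, and 0 were called without either CD49lo library. Ppp1r15a encodes GADD34, the stress-induced subunit that brings a phosphatase to eIF2 alpha. It had 69.4 and 61.4 RPKM (CD4 Treg), 14.4 (CD8 Treg), and 16.6 and 17.2 (CD49lo), with CD4 Treg above all others, and was higher there than in CD49lo by 1.94 ± 0.13 (SE; adjusted p = 1.4e-05). It fell by 2.04 ± 0.17 (SE; adjusted p = 5.89e-05) in CD8 Treg against CD4 Treg. Immediate early genes, a class that dissociation and sorting can induce, moved with it: 8 of 10 rose in CD4 Treg against CD49lo, 7 of 10 fell in CD8 Treg against CD4 Treg, and their sum was 1039 and 1020.4 (CD4 Treg), 357 (CD8 Treg), and 379.8 and 385 (CD49lo) RPKM. Without CD4 Treg replicate 1 or 2 the counts were 7 and 6, without CD49lo replicate 1 they were 5 and 4, and without CD49lo replicate 2 they were 4 and 4. The part of sample handling in this was not tested.

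Rptor, the mTORC1 scaffold raptor, had 11.7 and 10.6 RPKM (CD4 Treg), 20.3 (CD8 Treg), and 16.3 and 17.8 (CD49lo). It fell by 0.57 ± 0.13 (SE; adjusted p = 0.0108) in CD4 Treg against CD49lo and was higher in CD8 Treg than in CD4 Treg by 0.94 ± 0.16 (SE; adjusted p = 0.00312). Pdcd4, an inhibitor of eIF4A, had 274 and 276 RPKM (CD4 Treg), 314 (CD8 Treg), and 228 and 215 (CD49lo), and rose by 0.34 ± 0.09 (SE; adjusted p = 0.0297) in CD4 Treg and 0.64 ± 0.12 (SE; adjusted p = 0.0145) in CD8 Treg against CD49lo, as Eif4a1 and Eif4a2 did. Eif2ak2, the kinase PKR, had 19.1 and 13.8 RPKM (CD4 Treg), 7.67 (CD8 Treg), and 11.7 and 8.94 (CD49lo). It rose by 0.66 ± 0.21 (SE; adjusted p = 0.0473) in CD4 Treg against CD49lo and fell by 0.93 ± 0.25 (SE; adjusted p = 0.0343) in CD8 Treg against CD4 Treg. Rps6kb1, the S6 kinase, rose by 0.75 ± 0.21 (SE; adjusted p = 0.0363) in the latter comparison.

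Of 11 tested genes for poly(A) binding, termination and recycling (12 in the table), 1 rose in CD4 Treg against CD49lo, Paip1, by 0.56 ± 0.14 (SE; adjusted p = 0.0205). In CD8 Treg against CD4 Treg 2 rose: Pabpc1, the poly(A)-binding protein that contacts eIF4G, by 0.51 ± 0.12 (SE; adjusted p = 0.0187), and Mcts2 by 1.61 ± 0.46 (SE; adjusted p = 0.0403). Of 9 hypusine and diphthamide enzymes, which modify eIF5A and eEF2, Dph5 was the 1 called, with 12.8 and 12 RPKM (CD4 Treg), 27.0 (CD8 Treg), and 13.2 and 13.7 (CD49lo). It rose in CD8 Treg by 1.11 ± 0.22 (SE; adjusted p = 0.0231) against CD49lo and 1.20 ± 0.22 (SE; adjusted p = 0.00597) against CD4 Treg. Of 22 genes for cytosolic aminoacyl-tRNA synthetases and their scaffold, Gars alone was called: it fell by 0.72 ± 0.15 (SE; adjusted p = 0.00744) in CD4 Treg against CD49lo. In limma fits without CD4 Treg replicate 1 or 2, or without CD49lo replicate 1 or 2, 0 genes of the poly(A) list and 0 synthetases were called in any comparison, and the same held with no filter. Dph5 lost its call against CD49lo in all 4 of these fits, and against CD4 Treg it was called only without CD4 Treg replicate 1. None of 9 mitochondrial translation factors was called.

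Proliferation genes also differed between the groups. Of 21 cell cycle genes, 20 fell in CD4 Treg and 14 fell in CD8 Treg, each against CD49lo, and their sum was 252 and 274 (CD4 Treg), 290.4 (CD8 Treg), and 779.9 and 581 (CD49lo) RPKM. The counts were 15 and 3 without CD4 Treg replicate 1, 15 and 1 without CD4 Treg replicate 2, 3 and 0 without CD49lo replicate 1, and 5 and 0 without CD49lo replicate 2. In the 2 comparisons 1 and 0 translation factors fell, with all libraries in the fit, and 12.8% and 3.59% of all tested genes did. The 1 was the Y-linked Eif2s3y, which had 0 reads in CD4 Treg. In CD8 Treg against CD4 Treg 4 cell cycle genes rose and 0 fell, while 8 translation factors (Eif2s3y among them) rose and 3 fell. No test of cell cycle genes against translation factors was made.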

How the data were processed

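Total RNA from 5 sorted spleen samples was sequenced. The authors deposited a table of RPKM values. CASAVA, STAR and mm10 are the tools and build named, per the submitters' processing notes. The counter, strand setting and treatment of reads with several matches are not given in the sources used here. Reads per gene were recovered from the RPKM steps (100% of values whole within 0.02) and used for the filter, for trimmed mean of M values (TMM) factors and for limma-voom. The planned form of the test for RPKM was kept: limma 3.58.1 (R 4.3.3) was fitted to log2(RPKM/factor + 0.5), 3 groups, 2 residual degrees of freedom, variance prior following mean log2 reads scaled to depth. Genes needed the equivalent of 10 reads at median depth in at least 1 library and 15 reads in all. P-values are two-sided, with Benjamini-Hochberg adjustment over all 13298 tested genes. The code was tested on simulated data.

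The members and lists were chosen with earlier results of these data known. Members named are those called in any comparison, the 5 with the highest mean RPKM, the X- and Y-linked ones and those not tested; in companion lists, up to 4 called genes with the smallest p. The snoRNA, start-site and sequence-identity descriptions, and other names, were chosen after values were seen. Start windows are from RefSeq (GRCm38.p6) by symbol, with 43 of 55 members matched; gene bounds are the table's. Alternatives tried were 13 planned and 1 added after seeing the data (without the CD8 Treg library). All 5 sample columns were used.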

Additional observations from a re-analysis of the deposited data

How the results depend on the processing

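Calls depended on the filter and the variance prior. With no filter 1, 1 and 1 translation factors were called in the 3 comparisons, in the report's order, and 704 of all genes in the first and 1277 in the third. With a filter of 1 RPKM in every library of a group, 0 factors and 355 genes were called in the second and 2 factors in the third. With the prior following mean log2 RPKM, 3 factors and 365 genes were called in the second and 4 factors in the third. Without scaling 6 factors were called in the third. Leaving out 1 CD4 Treg or CD49lo library gave 1 to 2, 0 to 1 and 1 to 1 factors, and 451 to 1457, 14 to 199 and 277 to 967 genes. Fewer samples enter those fits; for the other settings the cause was not tested. Of the 22 calls, 20 held at a pseudocount of 0.1, 20 at 1, 22 with median-of-ratios scaling, 17 without scaling, 20 with limma-voom and 13 with the RPKM prior. None of them changed direction, and no called companion gene did.

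Reversals were limited to differences that were not called: without scaling Eif4g2 (-0.12, CD8 Treg against CD49lo) and Eif4a2 (-0.0026, CD8 Treg against CD4 Treg), and without CD49lo replicate 2, in CD4 Treg against CD49lo, Eif4enif1 (-0.044, up to 0.30 with another library left out), Eif3h (0.0031, down to -0.082) and Eef2 (-0.080, up to 0.16). Without the CD8 Treg library (chosen after seeing the data) 6 factors and 3151 genes were called in CD4 Treg against CD49lo.

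Samples share only a replicate number: the correlation of replicate differences between CD4 Treg and CD49lo was -0.02. With a replicate block 7, 7 and 12 factors were called and 3601, 1371 and 2870 genes, and all 22 calls held. In the shallowest library a single read on a gene of 1 kilobase is worth 0.184 RPKM. In CD4 Treg against CD49lo the 7 largest standard errors among the members were those of Eif2s3y, Eif3j2, Eef1e1, Eif4ebp1, Eif2b3, Eif4e3 and Eif5a2.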
